A study of Macaca mulatta with 21 samples.

Results

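CRES-3, an embryonic stem cell line from a cloned rhesus macaque (Macaca mulatta) blastocyst, was compared with adult rhesus skin fibroblasts, 3 arrays each of the 21 in the series. Of 52865 probe sets, 24969 carried 1 gene symbol, and the 17488 of these that reached a log2 RMA level of 5 on at least 3 of the 6 arrays were compared. They stood for 10741 of 14133 named genes, each read from its compared probe set with the highest mean over the 6 arrays. At the edge of this filter, probe sets of JAG1 and SHANK1 were kept with third-highest values of 5.00005 and 5.0001, and probe sets of ATAD2B and ZBTB17 were left out with 4.9998 and 4.99955. CRES-3 is labelled female and was made by somatic cell nuclear transfer (SCNT), in which the nucleus of a body cell is placed in an egg whose own nucleus was removed. The fibroblasts were grown from a skin biopsy of a female aged 8 years. The series' design text derives its cloned and induced lines from fibroblasts of the same monkey, and the label of CRES-3 itself names no donor. Both cell types were grown on inactivated mouse embryonic feeder cells. Medium, serum and harvest differed between them, since undifferentiated colonies were picked by hand and fibroblasts were trypsinized, and these cannot be told apart from the cell type. Each side is a single derivation with 3 biological replicates named A, B and C. The tests use the spread between cultures of a line, pooled over all 7 lines, and hold no spread between derivations.

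Nuclear transfer resets a differentiated nucleus to an embryonic state. The embryonic stem cells that grow out of the cloned blastocyst are held in a pluripotent, self-renewing state by POU5F1, SOX2 and their partners, and grow as compact epithelial colonies that divide fast. Skin fibroblasts are mesenchymal cells that make and remodel collagen matrix, answer injury and inflammation, and keep a memory of body position in their HOX genes.

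Of 10741 genes, 2034 were called higher in CRES-3 (18.9%) and 1622 lower (15.1%), 34.0% in all, where a call needed an adjusted p under 0.05 in limma and a difference of at least 2-fold. Over probe sets, 33.9% were called. With the mean of a gene's probe sets in place of the brightest one, 355 of the 1533 called genes with several probe sets were no longer called, and 509 of the 551 whose difference moved by over 1.5-fold were nearer to 0. These are bulk samples, so fewer cells of a type and less RNA per cell cannot be told apart. The median log2 difference, CRES-3 minus fibroblasts, was 0.03 over all genes. The 3 arrays of the lines did not overlap for 70.1% of the genes, with 37.9% higher and 32.3% lower in CRES-3. This held for 2021 of the 2034 genes called higher and for 1608 of the 1622 called lower. Differences of at least 4 on the log2 scale were reached by 127 called genes higher in CRES-3 and by 174 lower. Among the genes called higher, 449 averaged under log2 5 in the fibroblasts, and among those called lower, 329 averaged under log2 5 in CRES-3. Where the dimmer line was under log2 5, the fold change is given as a lower bound counted from that level. Such genes passed the filter mainly through the brighter line, so in the lists below their direction was largely set by the filter.

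**Figure D1:**
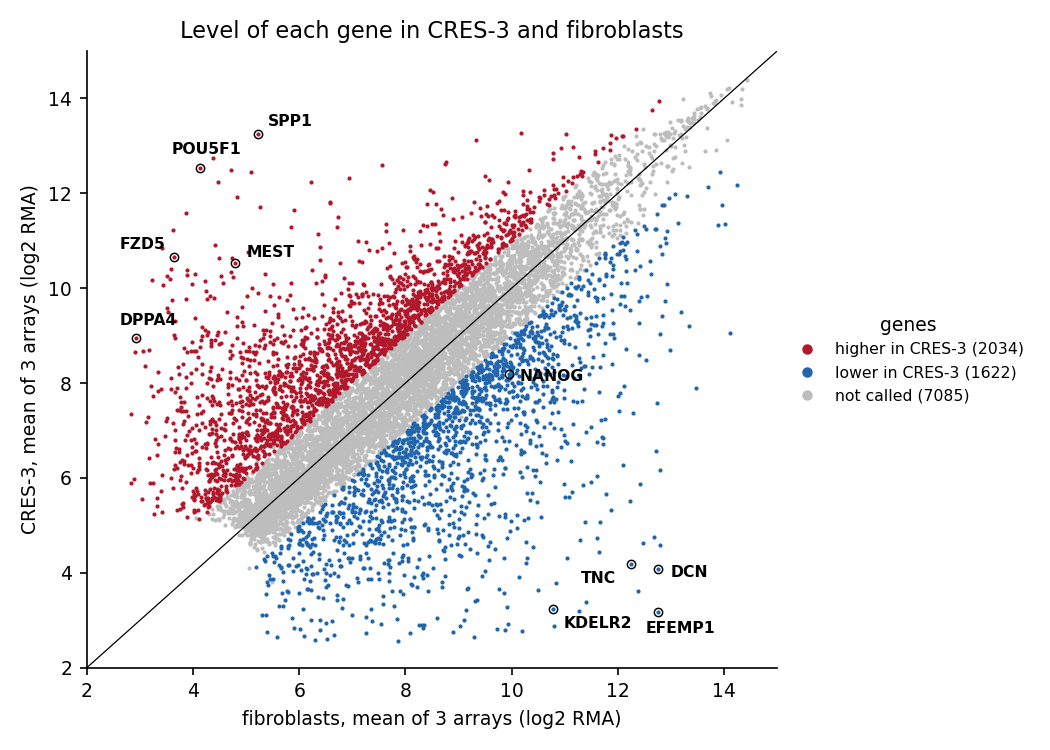
Mean log2 RMA level of each of the 10741 genes over 3 CRES-3 arrays (vertical) against the mean over 3 fibroblast arrays (horizontal), with the line of equal levels. The 2034 genes called higher in CRES-3 lie above the line and the 1622 called lower lie below it, and circled genes are named.

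The labelled cell types were checked against their markers. All 6 tested markers of pluripotent cells, of 9 listed, were higher in CRES-3, by log2 5.49 to 8.39, and all 6 averaged under log2 5 in the fibroblasts. These 6 thus passed the filter mainly through the CRES-3 arrays, so their direction was largely set by it and only the size of the rise is informative. In the longer list of pluripotency genes, 7 were called lower in CRES-3, with NANOG, KLF4, KLF5, KLF2, TBX3 and CD9 among them. None of the 7 was among these tested markers, so the marker check leaves the falls of that list out. All 11 tested fibroblast markers, of 13 listed, were lower in CRES-3, by log2 differences between -8.67 and -1.42. In CRES-3, 4 of them averaged under log2 5, and the direction of those 4 was likewise largely set by the filter. The CRES-3 arrays were closer to one another than the fibroblast arrays. Over the 17488 probe sets, pairs of CRES-3 arrays had correlations of 0.990 to 0.991, and the fibroblast pairs had 0.941 (A and B), 0.964 (A and C) and 0.983 (B and C). An SD above 1 over 3 arrays was found for 12 genes in CRES-3 and for 303 in the fibroblasts. The median SD over genes was 0.12 in CRES-3 and 0.22 in the fibroblasts. As the tests pool the spread of 7 lines, an SE or p can be too small for genes that vary among the fibroblast arrays. CENPF, for one, had an SD of 1.57 among the fibroblast arrays and an SE of 0.45. Fibroblast array A stood apart, with higher levels of cell cycle genes and lower levels of cytokine genes than arrays B and C, and a list count or gene difference below that moved by over 1.5 times without an array is given without it too. Without array A, 2140 genes were called higher in CRES-3 and 1674 lower.

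The largest rises joined transcription factors of pluripotency with RNA-binding proteins and a DNA methyltransferase. POU5F1 (OCT4), the factor that pluripotent cells cannot do without, read 12.79, 12.46 and 12.33 on the CRES-3 arrays, against 4.90, 3.93 and 3.59 on the fibroblast arrays. The lines stood more than log2 7 apart on every array, and the rise was log2 8.39 ± 0.26 (SE from the pooled spread, n = 3 arrays per line), at least 184-fold (adjusted p = 1.43e-14). Its partner SOX2 read 12.28, 12.18 and 12.26 on the CRES-3 arrays, against 4.90, 4.06 and 4.47 on the fibroblast arrays. SOX2 rose by log2 7.76, at least 151-fold. LIN28B, which blocks maturation of the let-7 microRNAs, rose by log2 7.72 and the oncofetal messenger RNA-binding protein IGF2BP3 by log2 8.36. IGF2BP3 had 12.82, 12.73 and 12.67 on the CRES-3 arrays, against 5.38, 3.93 and 3.81 on the fibroblast arrays. All 3 CRES-3 arrays were near log2 13, and fibroblast array A was the highest of its line. The DNA methyltransferase DNMT3B read 12.54, 12.52 and 12.43 on the CRES-3 arrays, against 5.26, 4.14 and 4.77 on the fibroblast arrays, a rise of log2 7.78. The other 5 of the 10 largest rises were the secreted phosphoprotein SPP1 (osteopontin, log2 8.03), the transcription factor NFE2L3 (7.60), the basement membrane protein FRAS1 (7.43), the RNA-binding protein RBPMS2 (7.34) and the cationic amino acid transporter SLC7A3 (7.11).

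The largest falls were mostly secreted matrix proteins. EFEMP1, a fibulin of the extracellular matrix, read 3.22, 2.96 and 3.36 on the CRES-3 arrays, against 11.997, 13.41 and 12.85 on the fibroblast arrays. It fell by log2 9.57 ± 0.58 (SE), at least 216-fold (adjusted p = 1.12e-10). DCN, the proteoglycan decorin that binds collagen fibrils, read 4.19, 3.93 and 4.11 on the CRES-3 arrays, against 12.37, 12.98 and 12.90 on the fibroblast arrays. DCN was under log2 5 on every CRES-3 array and above log2 12 on every fibroblast array, a fall of log2 8.67. TNC (tenascin-C) fell by log2 8.06, CTHRC1 (collagen triple helix repeat containing 1) by log2 8.06, TGFBI (a matrix protein induced by TGF-beta) by log2 7.92 and CCDC80 by log2 7.83. The secreted C1QTNF3 fell by log2 8.20 and the calcineurin B-like CHP2 by log2 8.00 (a log2 difference of -8.67 without fibroblast array A). PRRX1, a homeobox factor of limb and connective tissue mesenchyme, was the transcription factor among the 10 largest falls. PRRX1 read 2.79, 2.73 and 3.12 on the CRES-3 arrays, against 11.33, 10.35 and 10.69 on the fibroblast arrays, and its arrays stood more than log2 7 apart. The probe set of ATP8B3, a flippase-type ATPase, fell by log2 8.77, but a second probe set of that name was higher in CRES-3 by log2 1.41, so no direction is given for the gene.

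**Figure D2:**
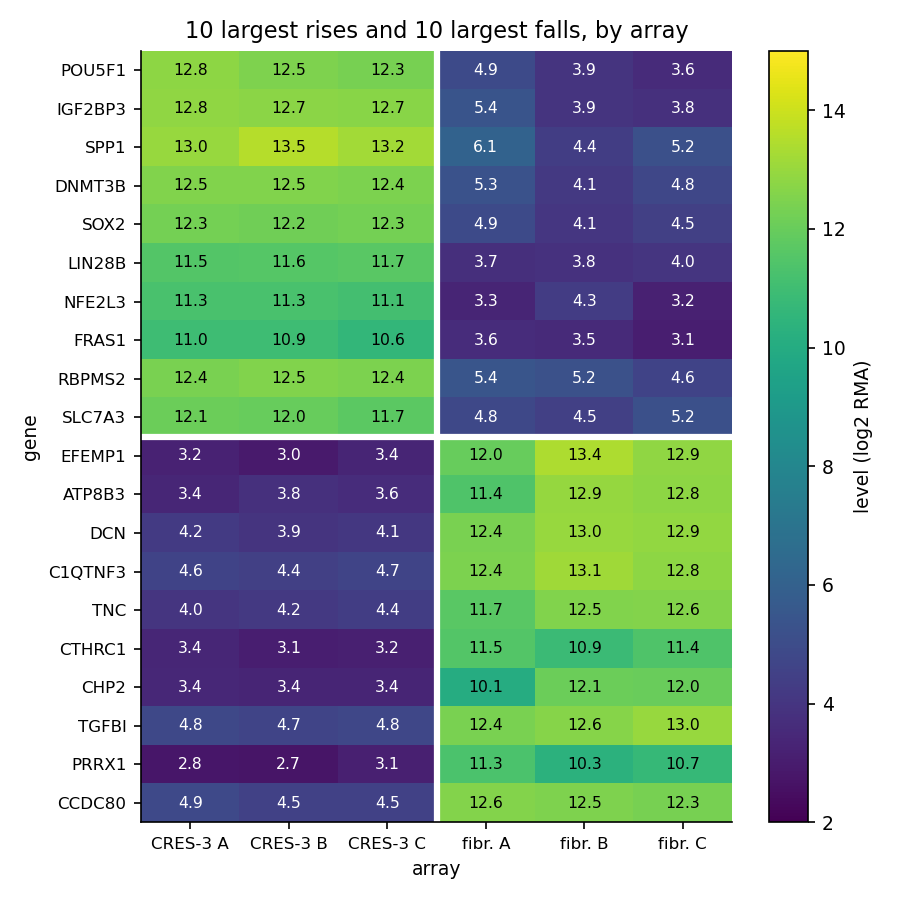
Log2 RMA level on each CRES-3 array (left) and each fibroblast array (right) of the 10 called genes with the largest rises (upper rows) and the 10 with the largest falls (lower rows) whose arrays did not overlap. SPP1 on CRES-3 array B is the brightest of these values, and CHP2 reads lower on fibroblast array A than on B and C.

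Of 28 tested genes of pluripotency and embryonic stem cells, 18 rose, 7 fell and 3 were not called (64.3% higher and 25% lower, against 18.9% and 15.1% over all genes, with a median log2 difference of 3.25, against 0.03 over all genes). In the fibroblasts, 11 of the 28 averaged under log2 5. Those 11 passed the filter mainly through CRES-3, so their direction was largely set by it. After POU5F1, SOX2, LIN28B and NFE2L3 came the MYC paralogue MYCN (log2 6.75) and DPPA4 (developmental pluripotency associated 4, 6.02). MYCN read 10.25, 10.04 and 10.49 on the CRES-3 arrays, against 3.40, 3.30 and 3.82 on the fibroblast arrays. MYCN was under log2 5 in the fibroblasts and high in CRES-3, whereas MYC itself was not called, at 9.74, 10.18 and 9.78 on the CRES-3 arrays, against 9.08, 9.46 and 9.68 on the fibroblast arrays (log2 difference 0.49). SALL4, a zinc finger factor of the same network and one of the pluripotent markers above, rose by log2 5.49. The falls were in other members. KLF4, 1 of the 4 factors used to make the series' induced lines, read 6.89, 7.46 and 6.86 on the CRES-3 arrays, against 8.45, 9.11 and 9.29 on the fibroblast arrays and fell by log2 1.88 ± 0.36 (SE, adjusted p = 1.55e-04). Its paralogues KLF5 and KLF2 fell by log2 2.40 and 1.70, and TBX3, a T-box factor also active in mesenchyme, by log2 2.89 (a log2 difference of -2.15 without fibroblast array A). Averaged over its probe sets, KLF2 had a log2 difference of -0.997 and was not called. All 3 KLF genes, by these probe sets, were lower on every CRES-3 array than on any fibroblast array, as were 32.3% of all genes. The tetraspanin CD9, a surface protein of stem cells and of many other cells, fell by log2 1.83. The single named NANOG probe set, for a homeobox factor of pluripotent cells, read 8.22, 7.88 and 8.44 on the CRES-3 arrays, against 10.54, 9.65 and 9.67 on the fibroblast arrays, a fall of log2 1.78. That level in fibroblasts was close to log2 10, and whether the probe set measured NANOG was not tested. The reprogramming-linked telomerase gene TERT had a log2 difference of 0.77 and was not called, and XIST was not analysed here.

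RNA-binding and splicing regulators rose beyond those named above. 9 of 15 tested members rose and 1 fell (60% higher and 6.67% lower, against 18.9% and 15.1% over all genes, with a median log2 difference of 1.68). Of the 15, 4 averaged under log2 5 in the fibroblasts. IGF2BP1, the paralogue of IGF2BP3, rose by log2 3.85 and PTBP2, a splicing regulator named for its part in neurons, by log2 3.46. ESRP2, which directs epithelial exon choice, rose by log2 3.80 and RBM47, another epithelial RNA-binding protein, by log2 3.79. The fall was MBNL2, a muscleblind protein that promotes splicing patterns of differentiated cells. MBNL2 read 5.87, 5.82 and 6.08 on the CRES-3 arrays, against 10.00, 10.85 and 10.76 on the fibroblast arrays. Its lines did not overlap, which held for 70.1% of all genes, and it fell by log2 4.61 ± 0.26 (SE), 24.5-fold.

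Of 13 tested genes of DNA methylation, 5 rose, DNMT3B among them, and 3 fell (38.5% higher and 23.1% lower, against 18.9% and 15.1% over all genes, with a median log2 difference of 0.37). The falls were 2 without MBD2, which is counted by its brightest probe set. TET1, which oxidizes 5-methylcytosine, read 10.92, 10.97 and 10.81 on the CRES-3 arrays, against 4.12, 4.74 and 4.37 on the fibroblast arrays. TET1 rose by log2 6.49, its paralogue TET3 by log2 2.22, and TET2 was not called (log2 difference 0.20). The de novo methyltransferase DNMT3A rose by log2 4.47 and the chromatin remodeller HELLS, needed for methylation of repeats, by log2 3.89. The maintenance enzyme DNMT1 had a log2 difference of 0.93 and was not called, except without CRES-3 array C (log2 1.04). The stress-induced GADD45B fell by log2 1.40 and ZBTB33, a methyl-CpG-binding protein, by log2 1.49. The reading of MBD2, another such binder, depended on the probe set. Those with log2 differences of -5.41 and -4.91 were lower in CRES-3 and the third, at 5.32, was higher, so no direction is given.

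Chromatin complexes had subunits called in both directions. 7 of 20 tested Polycomb genes rose and 4 fell (35% higher and 20% lower, against 18.9% and 15.1% over all genes, with a median log2 difference of 0.26). JARID2, which recruits the histone methyltransferase complex PRC2, read 12.14, 12.16 and 11.91 on the CRES-3 arrays, against 8.00, 8.85 and 8.56 on the fibroblast arrays and rose by log2 3.60 ± 0.18 (SE). The PRC2 core subunit SUZ12 rose by log2 1.08 (log2 0.99 without fibroblast array B and 0.89 averaged over its probe sets, neither called), while the catalytic EZH1 was not called (log2 difference 0.28). In the ubiquitin-ligase complex PRC1, RYBP, CBX7, KDM2B and PCGF6 rose by log2 1.70, 1.56, 1.37 and 1.31, and PHC2, PCGF1 and CBX6 fell by log2 2.84, 1.73 and 1.66. The paralogues CBX7 and CBX6 thus moved in opposite directions, as did PCGF6 and PCGF1. Of 27 tested genes of the BAF and NuRD remodelling complexes and their relatives, 11 rose and 3 fell (40.7% higher and 11.1% lower, against 18.9% and 15.1% over all genes, with a median log2 difference of 0.64). Those that rose included the chromodomain helicase CHD7 (4.38), the NuRD subunits MTA3 (2.80) and HDAC2 (2.07), and the BAF subunits SMARCC1 (1.67) and SMARCD1 (1.71). SMARCD3, the paralogue of SMARCD1, read 4.73, 5.10 and 5.46 on the CRES-3 arrays, against 7.36, 7.95 and 7.68 on the fibroblast arrays and fell by log2 2.57. The ATPase subunit SMARCA2 fell by log2 1.79.

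Epithelial genes were higher in CRES-3 and mesenchymal transcription factors lower. 20 of 33 tested junction and keratin genes rose and 1 fell (60.6% higher and 3.03% lower, against 18.9% and 15.1% over all genes, with a median log2 difference of 1.97). In the fibroblasts, 7 of the 33 averaged under log2 5, and their direction was largely set by the filter. EPCAM, the epithelial cell adhesion molecule, read 10.54, 10.10 and 10.59 on the CRES-3 arrays, against 3.52, 3.49 and 3.77 on the fibroblast arrays. EPCAM was under log2 5 on average in the fibroblasts and rose by log2 6.82, at least 42.4-fold. The desmosome proteins DSP and DSC2 rose by log2 6.63 and 5.96, the tight junction proteins CLDN6 and F11R by log2 6.45 and 5.21, and the keratin KRT19 by log2 6.15. The fall was the keratin KRT7, at 6.36, 6.41 and 6.18 on the CRES-3 arrays, against 9.39, 11.20 and 11.34 on the fibroblast arrays (log2 difference -4.33, and -4.96 without fibroblast array A).

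Of 49 tested mesenchymal and fibroblast transcription factors, 32 fell and 2 rose (4.08% higher and 65.3% lower, against 18.9% and 15.1% over all genes, with a median log2 difference of -2.27). 16 of them averaged under log2 5 in CRES-3. After PRRX1 came CEBPD (-4.99), the hypoxia factor EPAS1 (-4.72), RUNX1 (-4.30), EBF1 (-4.25) and MSX1 (-4.24). The repressors of epithelial genes ZEB2, ZEB1 and SNAI1 fell by log2 3.70, 2.88 and 1.49, and the basic helix-loop-helix factor TWIST1 by log2 3.19. ZEB2 read 4.09, 3.42 and 4.48 on the CRES-3 arrays, against 7.83, 7.56 and 7.71 on the fibroblast arrays. Neither ZEB gene nor SNAI1 overlapped between the lines, which held for 70.1% of all genes. The rises were PBX3 (1.93) and FOXO1 (1.86).

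HOX genes, which mark position along the body axis, fell without exception among those called. 13 of 17 tested HOX genes fell and 0 rose, and 8 averaged under log2 5 in CRES-3 (0% higher and 76.5% lower, against 18.9% and 15.1% over all genes, with a median log2 difference of -1.68). Those 8 passed the filter mainly through the fibroblast arrays, so their direction was largely set by it. HOXA9 read 3.22, 3.10 and 3.34 on the CRES-3 arrays, against 8.90, 9.22 and 9.31 on the fibroblast arrays and fell by log2 5.93 ± 0.27 (SE). The other large falls were HOXC6 (-4.20), HOXA5 (-3.58), HOXB6 (-3.27), HOXB7 (-2.83) and HOXA7 (-2.23), so the HOXA, HOXB and HOXC clusters were all among them.

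**Figure D3:**
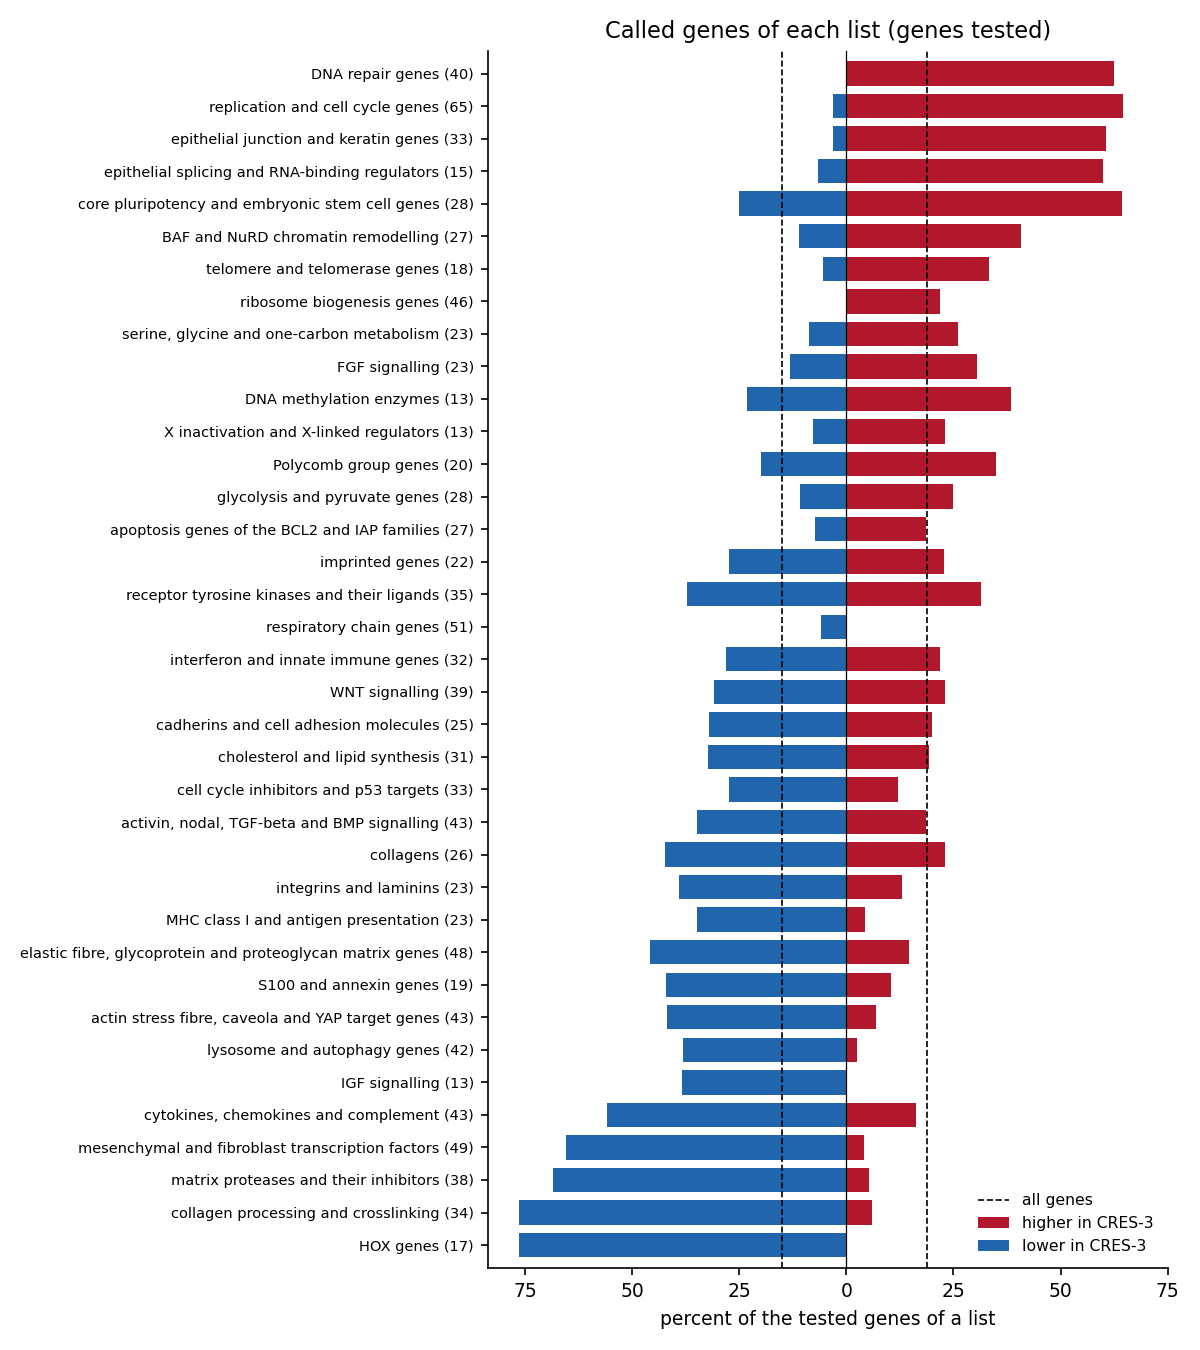
Percent of the tested genes of each of 37 lists that were called higher in CRES-3 (right) or lower (left), with dashed lines at 18.9% and 15.1%, the shares over all 10741 genes. DNA repair, cell cycle, epithelial and pluripotency lists reach farthest right, and HOX, collagen processing, protease and mesenchymal factor lists farthest left.

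Collagen chains were called in both directions. Of 26 tested, 11 fell, 6 rose and 9 were not called (23.1% higher and 42.3% lower, against 18.9% and 15.1% over all genes, with a median log2 difference of -0.34), so the share of rises was near that over all genes. COL1A2, a chain of the fibrillar type I collagen, read 9.37, 9.63 and 8.17 on the CRES-3 arrays, against 14.08, 14.11 and 14.13 on the fibroblast arrays and fell by log2 5.05 ± 0.54 (SE), 33.1-fold. Its partner chain COL1A1 fell by log2 3.43 and the fibrillar COL3A1 by log2 1.42. Of the chains that associate with fibrils, COL12A1, COL14A1 and COL16A1 fell, with log2 differences of -5.50, -4.45 and -4.01, and COL9A1 and COL9A3, known from cartilage, rose by log2 1.59 and 1.52. The beaded-filament chains of type VI fell, with COL6A1 at -4.03 and COL6A2 at -4.01. COL4A5 read 9.34, 9.30 and 9.52 on the CRES-3 arrays, against 5.02, 4.81 and 4.64 on the fibroblast arrays and rose by log2 4.56. Its paralogue COL4A6 rose by log2 1.14 (log2 0.96 and not called without fibroblast array B) and the basement membrane collagen COL18A1 by log2 2.16 by its brighter probe set, 0.75 and not called with the mean of both. COL8A2 rose by log2 2.65.

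Genes that fold, secrete and crosslink collagen fell in 26 of 34 tested and rose in 2 (5.88% higher and 76.5% lower, against 18.9% and 15.1% over all genes, with a median log2 difference of -1.67). The rises were 1 without PLOD1, which is counted by its brightest probe set. LOX, the oxidase that crosslinks collagen and elastin, read 4.82, 5.11 and 5.31 on the CRES-3 arrays, against 11.15, 11.97 and 11.89 on the fibroblast arrays. LOX fell by log2 6.59, 96.3-fold, and its paralogue LOXL3 by log2 2.83. The procollagen N-proteinase ADAMTS2 fell by log2 4.36, the C-proteinase enhancer PCOLCE2 by log2 3.80 and CREB3L1, a transcription factor of the secretory pathway, by log2 4.07. The largest fall here was KDELR2, a receptor that returns proteins to the endoplasmic reticulum, at 3.36, 3.18 and 3.19 on the CRES-3 arrays, against 11.18, 10.28 and 10.88 on the fibroblast arrays (log2 difference -7.54). All 4 of its probe sets were lower in CRES-3. ADAMTS3, the paralogue of ADAMTS2 with procollagen as a substrate, rose by log2 2.51. The lysyl hydroxylase PLOD1 had 3 probe sets higher in CRES-3 and 1 lower, so no direction is given for it.

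Among elastic fibre, glycoprotein and proteoglycan genes, 22 of 48 fell and 7 rose (14.6% higher and 45.8% lower, against 18.9% and 15.1% over all genes, with a median log2 difference of -0.81). In CRES-3, 11 of the 48 averaged under log2 5. The falls were 21 without FBN1 (fibrillin), whose probe sets were called in both directions. Besides the matrix genes among the largest falls, LUM, the proteoglycan lumican, fell by log2 7.06 (a log2 difference of -7.71 without CRES-3 array C). The rises included heparan sulfate proteoglycans. The glypicans GPC3, GPC4 and GPC6 rose by log2 3.74, 2.89 and 2.65, and AGRN, agrin, by log2 2.68. GPC3 read 9.07, 9.18 and 9.09 on the CRES-3 arrays, against 5.12, 5.44 and 5.57 on the fibroblast arrays. All 3 glypicans were higher on every CRES-3 array than on any fibroblast array, as were 37.9% of all genes.

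Integrin and laminin chains, the receptors for matrix and the basement membrane, were also called in both directions. 9 of 23 tested integrins and laminins fell and 3 rose (13.04% higher and 39.1% lower, against 18.9% and 15.1% over all genes, with a median log2 difference of -0.77). ITGA6, the integrin chain that binds laminin, read 10.47, 10.20 and 10.58 on the CRES-3 arrays, against 6.93, 7.92 and 8.10 on the fibroblast arrays and rose by log2 2.77. The laminin-binding ITGA7 rose by log2 1.47 (0.75 and not called averaged over its probe sets) and the laminin chain LAMA1 by log2 3.32. The collagen-binding chains ITGA11 and ITGA2 fell by log2 4.28 and 2.99, ITGA8 by log2 5.89, the common chain ITGB1 by log2 1.97 and the laminin chain LAMA4 by log2 3.01 (a log2 difference of -3.66 without fibroblast array A). ITGB2, known from leukocytes, fell by log2 3.36.

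Matrix proteases and their inhibitors fell in 26 of 38 tested members and rose in 2 (5.26% higher and 68.4% lower, against 18.9% and 15.1% over all genes, with a median log2 difference of -1.98). In CRES-3, 7 of the 38 averaged under log2 5. FAP, fibroblast activation protein, read 2.79, 2.87 and 2.65 on the CRES-3 arrays, against 9.87, 10.26 and 10.43 on the fibroblast arrays. FAP fell by log2 7.42, at least 36.4-fold. ADAM12 fell by log2 6.64, the stromelysin MMP3 by log2 5.54, the proteoglycan-cleaving ADAMTS1 and ADAMTS5 by log2 5.54 and 4.80 (a log2 difference of -5.68 without fibroblast array A), and the cathepsin CTSK by log2 4.51. The sheddase ADAM10 rose by log2 1.35 and SERPING1, the C1 inhibitor, by log2 1.06, which was log2 0.93 and not called without fibroblast array A.

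18 of 43 genes of stress fibres, caveolae and YAP targets fell and 3 rose (6.98% higher and 41.9% lower, against 18.9% and 15.1% over all genes, with a median log2 difference of -0.87). The falls were 17 without the actin-binding PDLIM5, whose probe sets were called in both directions. ANKRD1, a YAP target, fell by log2 4.25, the actin-filament protein LMOD1 by log2 3.15, the tropomyosin TPM2 by log2 2.63 and EHD2, a caveola protein, by log2 2.31. Among other YAP targets, CCN1 fell by log2 1.42, and CCN2 read 12.23, 12.34 and 12.35 on the CRES-3 arrays, against 11.34, 13.12 and 12.67 on the fibroblast arrays, a log2 difference of -0.07 that was not called. The lines overlapped for this probe set of CCN2, while its other, dimmer probe set was called lower in CRES-3. TEAD2, a DNA-binding partner of YAP, rose by log2 1.84 (0.83 and not called averaged over its probe sets).

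Calcium-binding S100 proteins and annexins fell in 8 of 19 tested members and rose in 2 (10.5% higher and 42.1% lower, against 18.9% and 15.1% over all genes, with a median log2 difference of -0.42). S100A4, named fibroblast-specific protein in some texts, read 6.02, 5.92 and 6.59 on the CRES-3 arrays, against 13.84, 11.76 and 12.75 on the fibroblast arrays and fell by log2 6.61, 97.4-fold. S100A6 and S100A11 fell by log2 5.57 and 3.17, and the annexins ANXA1, ANXA6 and ANXA4 by log2 4.92, 2.13 and 1.97. Their paralogues S100A1 and ANXA10 rose by log2 2.76 and 4.34. Of 25 tested cadherins and adhesion molecules, 5 rose and 8 fell (20% higher and 32% lower, against 18.9% and 15.1% over all genes, with a median log2 difference of -0.13), so the share of rises was near that over all genes. P-cadherin, CDH3, rose by log2 4.38, and CDH13 and the mesenchymal CDH11 fell by log2 4.63 and 3.32. CD47, the surface protein that restrains phagocytes, fell by log2 3.83, and the hyaluronan receptor CD44 by log2 2.83.

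In the activin, nodal, TGF-beta and BMP pathways, ligands, antagonists and receptors were called in both directions. Of 43 tested genes, 8 rose and 15 fell (18.6% higher and 34.9% lower, against 18.9% and 15.1% over all genes, with a median log2 difference of -0.34), so the share of rises was near that over all genes. NODAL, the ligand that holds primed pluripotent cells in their state, read 8.21, 8.07 and 7.39 on the CRES-3 arrays, against 6.08, 6.30 and 5.67 on the fibroblast arrays and rose by log2 1.88 ± 0.43 (SE). Its relatives GDF3 and BMP4 rose by log2 3.05 and 3.54, and its secreted antagonist CER1 by log2 3.11. INHBA, the subunit of activin A, moved the other way at 4.72, 4.49 and 4.44 on the CRES-3 arrays, against 7.94, 9.27 and 9.02 on the fibroblast arrays (log2 difference -4.19). TGFB3 fell by log2 2.65 and the BMP family member GDF6 by log2 4.34. BAMBI, a pseudoreceptor that blocks the pathway, read 10.09, 10.18 and 10.03 on the CRES-3 arrays, against 4.53, 4.70 and 4.48 on the fibroblast arrays. BAMBI rose by log2 5.53, at least 34.3-fold. Among receptors, the activin receptor ACVR2B rose by log2 2.80 and its paralogue ACVR2A fell by log2 1.11, a call lost without fibroblast array B (log2 difference -0.94). TGFBR1 and TGFBR2 had log2 differences of -0.20 and -0.14, neither called, and the TGF-beta co-receptor ENG fell by log2 3.77. The latent TGF-beta binding protein LTBP1 and the activin inhibitor FSTL3 fell by log2 3.70 and 3.66, and the corepressor TGIF1 rose by log2 2.20.

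Of 23 tested genes of FGF signalling, 7 rose and 3 fell (30.4% higher and 13.04% lower, against 18.9% and 15.1% over all genes, with a median log2 difference of 0.31). The receptor FGFR2 read 9.95, 9.91 and 9.81 on the CRES-3 arrays, against 5.63, 5.41 and 4.65 on the fibroblast arrays and rose by log2 4.66, 25.3-fold, while FGFR1 and FGFR4 had log2 differences of -0.01 and 0.28 and were not called. The reading of FGFR3 depended on the probe set, with a log2 difference of -0.39 that was not called for the brighter one, the other called higher in CRES-3 and a mean of 1.18.Of the ligands, FGF19 and FGF4 rose by log2 2.47 and 1.08, the second not called without fibroblast array B (log2 0.91). FGF2, the ligand that stem cell cultures are often fed, read 7.79, 7.49 and 7.74 on the CRES-3 arrays, against 7.85, 10.19 and 9.93 on the fibroblast arrays and fell by log2 1.65 (a log2 difference of -2.39 without fibroblast array A). Fibroblast array A was close to the CRES-3 arrays for FGF2, and arrays B and C were more than log2 2 above them. FGF5 fell by log2 1.04, with log2 differences of -0.97 without CRES-3 array A and -0.79 without fibroblast array A that were not called. FGF12, which stays inside the cell, rose by log2 4.51. The target genes ETV4 and SPRY2 rose by log2 2.33 and 1.67, and the phosphatase DUSP4 fell by log2 1.31.

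**Figure D4:**
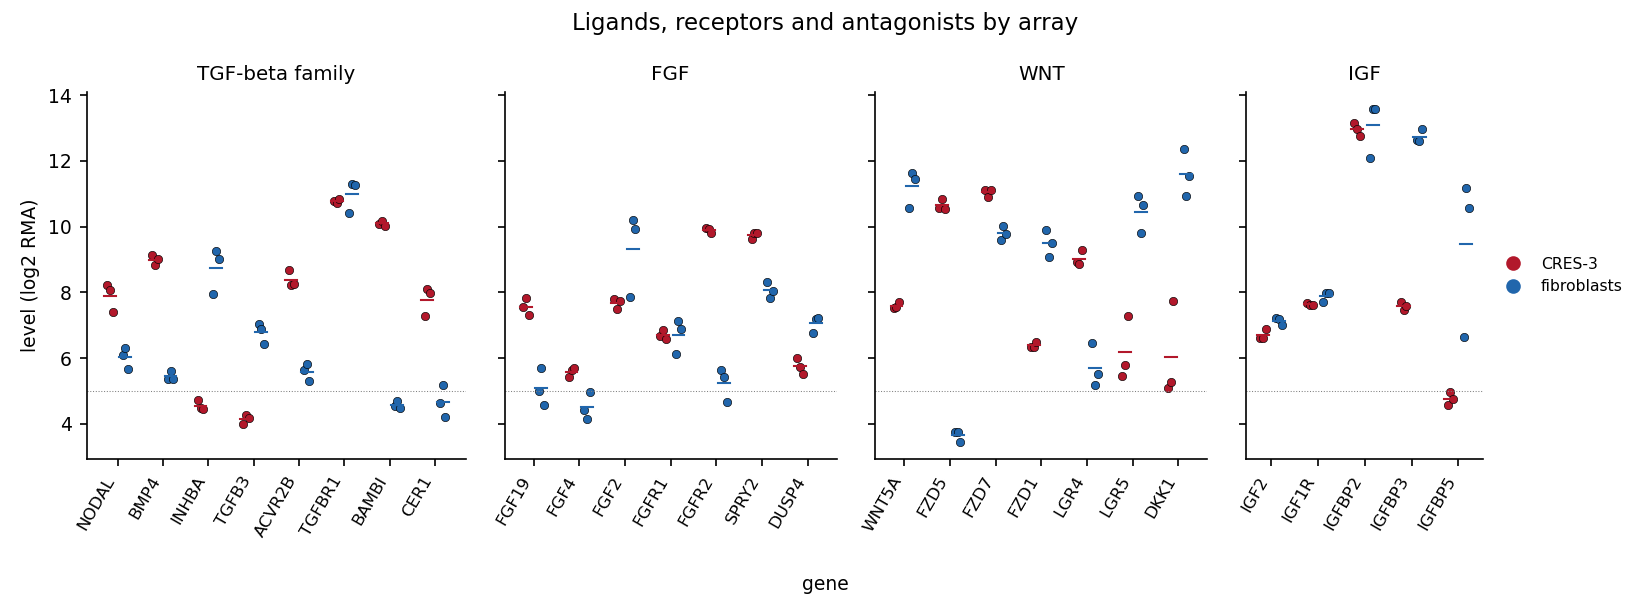
Log2 RMA level on each array of selected ligands, receptors, antagonists and target genes of 4 signalling families, CRES-3 left and fibroblasts right for each gene, with horizontal bars at the mean of 3 arrays and a dotted line at log2 5. FGF2 and IGFBP5 show fibroblast array A well below arrays B and C, and DKK1 and LGR5 show CRES-3 array C above A and B.

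WNT genes changed in both directions, with 9 of 39 higher and 12 lower (23.1% higher and 30.8% lower, against 18.9% and 15.1% over all genes, with a median log2 difference of -0.39). The share of rises was near that over all genes. The receptor FZD5 read 10.57, 10.85 and 10.53 on the CRES-3 arrays, against 3.74, 3.75 and 3.43 on the fibroblast arrays. FZD5 rose by log2 7.01, at least 50.2-fold, and its paralogues FZD3 and FZD7 by log2 2.76 and 1.26, whereas FZD1 fell by log2 3.10. The R-spondin receptors LGR4 and LGR5 moved apart, at log2 differences of 3.31 and -4.29. Of the ligands, WNT5A and WNT5B fell by log2 3.63 and 1.98, and WNT3 was not called (log2 difference 0.68). WLS, which carries WNT proteins to the cell surface, fell by log2 4.41 (a log2 difference of -5.14 without fibroblast array A), and the R-spondin RSPO3 by log2 3.67 (a log2 difference of -4.90 without fibroblast array A and -2.90 without fibroblast array B). The secreted antagonist DKK1 read 5.09, 5.28 and 7.74 on the CRES-3 arrays, against 12.35, 10.94 and 11.55 on the fibroblast arrays and fell by log2 5.58 ± 0.89 (SE, and -6.43 as a log2 difference without CRES-3 array C). CRES-3 array C was more than log2 2 above the other CRES-3 arrays for DKK1, and still below every fibroblast array. DKK3 and SFRP2 fell by log2 4.77 and 1.77, and another antagonist, WIF1, rose by log2 3.37. TCF7L1, a repressor of WNT targets, rose by log2 2.34.

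In the insulin-like growth factor pathway, binding proteins were among the falls and the ligand IGF2 and receptor IGF1R were not called. 5 of 13 tested genes fell and 0 rose (0% higher and 38.5% lower, against 18.9% and 15.1% over all genes, with a median log2 difference of -0.43). IGFBP3 read 7.72, 7.45 and 7.59 on the CRES-3 arrays, against 12.62, 12.60 and 12.96 on the fibroblast arrays and fell by log2 5.14, 35.3-fold. IGFBP5, IGFBP4 and IGFBP6 fell by log2 4.70, 3.68 and 3.01. IGFBP5 read 6.63, 11.18 and 10.57 on fibroblast arrays A, B and C, with array A more than log2 3 below the others, and 4.57, 4.97 and 4.75 in CRES-3 (a log2 difference of -6.11 without fibroblast array A and -3.84 without fibroblast array B). IGFBP2 read 13.14, 12.98 and 12.77 on the CRES-3 arrays, against 12.08, 13.58 and 13.59 on the fibroblast arrays (log2 difference -0.12), and the arrays overlapped. The ligand IGF2 had a log2 difference of -0.43 and the receptor IGF1R -0.26.

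Receptor tyrosine kinases and their ligands rose in 11 and fell in 13 of 35 tested genes (31.4% higher and 37.1% lower, against 18.9% and 15.1% over all genes, with a median log2 difference of -0.15). The falls were 10 without EPHA1, PDGFC and EFNA1. KIT, the stem cell factor receptor, rose by log2 4.25, ERBB3 and its partner ERBB2 by log2 3.30 and 3.02, and the ephrin receptor EPHA3 by log2 3.10. ERBB3 read 8.67, 8.26 and 8.15 on the CRES-3 arrays, against 5.53, 5.02 and 4.63 on the fibroblast arrays. The ephrins EFNB3 and EFNB2 rose by log2 2.85 and 2.73. MET, the hepatocyte growth factor receptor, fell by log2 4.07, AXL by log2 3.43 together with its ligand GAS6 (log2 difference -3.26), and the neurotrophin BDNF by log2 4.25. EPHA1, PDGFC and EFNA1 had probe sets called in both directions and are given no direction.

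8 of 23 tested genes of MHC class I and antigen presentation fell and 1 rose (4.35% higher and 34.8% lower, against 18.9% and 15.1% over all genes, with a median log2 difference of -0.36). TAPBP, which loads peptide onto class I molecules, fell by log2 3.37, the immunoproteasome subunit PSMB8 by log2 2.74, the peptide transporter TAP1 by log2 1.20, the class I genes MAMU-F and MAMU-A by log2 1.93 and 1.46 and their activator NLRC5 by log2 1.69. The invariant chain B2M, chosen after its values were seen, read 12.93, 12.85 and 12.88 on the CRES-3 arrays, against 13.18, 13.29 and 13.31 on the fibroblast arrays and was not called (log2 difference -0.37). The class I genes of the macaque are near-identical copies, so their probe sets may take signal from one another. MICB, a stress ligand of natural killer cells, rose by log2 3.36.

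Interferon and innate immune genes went both ways, 7 of 32 higher and 9 lower (21.9% higher and 28.1% lower, against 18.9% and 15.1% over all genes, with a median log2 difference of -0.33). The share of rises was near that over all genes. IFI16, a sensor of DNA, read 2.68, 2.86 and 2.93 on the CRES-3 arrays, against 10.11, 9.37 and 9.70 on the fibroblast arrays and fell by log2 6.91. STING1, the adaptor that DNA sensing signals through, fell by log2 4.71 and read 5.18, 5.15 and 5.19 on the CRES-3 arrays, against 9.97, 9.97 and 9.70 on the fibroblast arrays. GBP1, IFI35, JAK2 and TRIM25 fell by log2 3.71, 3.37, 3.12 and 2.47. IFITM1, a membrane protein that hinders virus entry, read 13.09, 13.24 and 13.03 on the CRES-3 arrays, against 8.50, 10.13 and 9.37 on the fibroblast arrays and rose by log2 3.79. MX1, GBP2, DHX58, ISG15 and BST2, all known as interferon-induced, rose by log2 2.49, 2.46, 2.45, 1.95 and 1.46. The paralogues GBP1 and GBP2 thus differed in direction.

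Cytokines, chemokines and complement fell in 24 of 43 tested genes and rose in 7 (16.3% higher and 55.8% lower, against 18.9% and 15.1% over all genes, with a median log2 difference of -1.64), so the share of rises was near that over all genes. 15 members averaged under log2 5 in CRES-3. IL6, an inflammatory cytokine, read 3.46, 3.91 and 3.55 on the CRES-3 arrays, against 8.92, 11.23 and 11.30 on the fibroblast arrays and fell by log2 6.85 (a log2 difference of -7.63 without fibroblast array A). CXCL8, which attracts neutrophils, read 3.90, 4.01 and 3.98 on the CRES-3 arrays, against 5.37, 9.64 and 9.91 on the fibroblast arrays, with fibroblast array A the lowest of its line, and fell by log2 4.34 (a log2 difference of -5.81 without fibroblast array A and -3.68 without fibroblast array B and -3.54 without fibroblast array C). NFKB1, a subunit of the NF-kappaB transcription factor, fell by log2 5.17, TNFAIP6 by log2 5.12 and the interleukin-33 receptor IL1RL1 by log2 4.51. The rises included the hyaluronan synthases HAS3 and HAS2 (3.71 and 2.70), the death receptor family member TNFRSF21 (3.83), and the chemokine CXCL12 (2.92, 1 of its 3 probe sets, and 0.89 and not called with their mean). The list averaged 6.92, 7.70 and 7.63 on fibroblast arrays A, B and C. Array A was the lowest of the 3 for 31 of 43 genes, against 3904 of 10741 over all genes. Without array A, 29 of the genes were called, against 31 with it.

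Replication and cell cycle genes were higher in CRES-3, in 42 of 65 tested, with 2 lower (64.6% higher and 3.08% lower, against 18.9% and 15.1% over all genes, with a median log2 difference of 1.40). The list averaged 9.05, 8.99 and 9.10 on the CRES-3 arrays, against 8.45, 7.26 and 7.86 on the fibroblast arrays. Fibroblast array A was the highest of its line for 56 of the 65 genes, against 4678 of 10741 over all genes. On this list it still averaged below every CRES-3 array. Array B had the lowest mean of the line. Without fibroblast array A, B or C, 43, 39 and 45 genes were called, against 44 with all arrays. MCM3, a subunit of the replicative helicase, read 11.29, 11.26 and 11.43 on the CRES-3 arrays, against 9.56, 7.15 and 8.29 on the fibroblast arrays and rose by log2 2.99 (a log2 difference of 3.61 without fibroblast array A and 2.40 without fibroblast array B). CENPF, a kinetochore protein, rose by log2 3.37 (a log2 difference of 4.13 without fibroblast array A and 2.56 without fibroblast array B). Topoisomerase TOP2A rose by log2 2.87 (a log2 difference of 2.13 without fibroblast array B). The replication regulator GMNN rose by log2 2.65, the replication factor MCM10 by log2 2.55 (a log2 difference of 1.81 without fibroblast array B) and E2F5 by log2 2.53. The mitotic kinase CDK1 rose by log2 2.24 (2.79 without fibroblast array A), with its cyclin CCNB1 at 1.74 (a log2 difference of 2.46 without fibroblast array A and 1.01 without fibroblast array B). The falls were both D-type cyclins, which drive entry into the cycle in response to growth factors. CCND1 read 7.88, 7.77 and 7.90 on the CRES-3 arrays, against 11.20, 10.66 and 11.08 on the fibroblast arrays, and CCND3 fell by log2 3.56, CCND1 by log2 3.13.

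**Figure D5:**
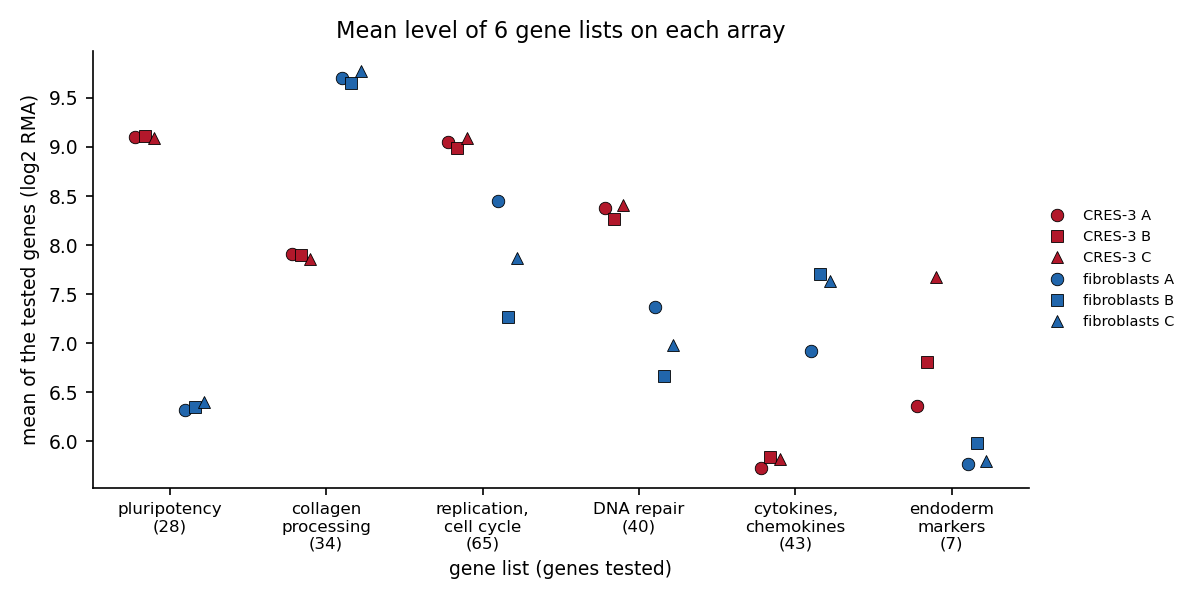
Mean log2 RMA level of the tested genes of 6 lists on each array, CRES-3 left and fibroblasts right within each list, with a symbol for each replicate. Fibroblast array A is highest of its line for replication, cell cycle and DNA repair genes and lowest for cytokine genes, and CRES-3 array C is highest of its line for endoderm markers.

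Inhibitors of the cycle and p53 targets fell in 9 of 33 tested genes and rose in 4 (12.1% higher and 27.3% lower, against 18.9% and 15.1% over all genes, with a median log2 difference of -0.36). CDKN1A (p21) read 6.57, 7.07 and 6.94 on the CRES-3 arrays, against 11.43, 12.12 and 11.54 on the fibroblast arrays and fell by log2 4.84, 28.6-fold. CDKN2A, the locus of p16 and ARF, read 5.75, 5.07 and 5.44 on the CRES-3 arrays, against 9.88, 8.87 and 9.35 on the fibroblast arrays and fell by log2 3.95. CDKN2C fell by log2 3.44, the death receptor FAS by log2 3.11, and CDKN1B was not called (log2 difference -0.16). The lamins moved apart. LMNA, the lamin of differentiated nuclei, fell by log2 4.18, and LMNB1 rose by log2 2.37 (a log2 difference of 2.98 without fibroblast array A and 1.62 without fibroblast array B). PMAIP1, the BH3-only protein NOXA, read 12.46, 12.24 and 12.27 on the CRES-3 arrays, against 6.82, 7.07 and 6.93 on the fibroblast arrays and rose by log2 5.39. Of 27 tested genes of the BCL2 and IAP families, 5 rose and 2 fell (18.5% higher and 7.41% lower, against 18.9% and 15.1% over all genes, with a median log2 difference of 0.03), so the share of rises was near that over all genes. Besides PMAIP1 the rises included BIK (1.93), BCL2L14 (1.85), APAF1 (1.37, and 0.88 and not called averaged over its probe sets) and BIRC2 of the IAP family (1.02). BCL2L11 was among the falls, with a log2 difference of -1.16. Its arrays overlapped between the lines, and 1 of its 4 probe sets was called lower.

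DNA repair genes rose in 25 of 40 tested members, and 0 fell (62.5% higher and 0% lower, against 18.9% and 15.1% over all genes, with a median log2 difference of 1.25). BARD1, the partner of BRCA1, read 8.50, 8.57 and 8.66 on the CRES-3 arrays, against 6.84, 5.34 and 5.89 on the fibroblast arrays and rose by log2 2.56. The uracil glycosylase UNG rose by log2 2.53, the checkpoint kinase CHEK1 by log2 2.44, the mismatch protein MSH6 by log2 2.35, PARP1 by log2 2.34 and the recombination protein RAD54B by log2 2.34. Fibroblast array A was the highest of its line for 32 of the 40 genes, against 4678 of 10741 over all genes. Without array A 29 of the repair genes were called, against 25 with it. Telomere genes rose in 6 of 18 and fell in 1 (33.3% higher and 5.56% lower, against 18.9% and 15.1% over all genes, with a median log2 difference of 0.87). RIF1 rose by log2 2.39, CTC1 of the telomere-capping CST complex by log2 2.23 (0.97 and not called averaged over its probe sets), and TINF2 of shelterin fell by log2 1.12. Without CRES-3 array A the list had 4 calls, against 7 with it.

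Transporters were among the metabolic genes that rose. 7 of 28 tested genes of glycolysis and pyruvate handling rose and 3 fell (25% higher and 10.7% lower, against 18.9% and 15.1% over all genes, with a median log2 difference of 0.13). The glucose transporter SLC2A1 read 10.80, 10.89 and 10.74 on the CRES-3 arrays, against 7.01, 7.30 and 7.62 on the fibroblast arrays and rose by log2 3.50. The transporters SLC2A3 for glucose and SLC16A1 for lactate rose by log2 1.94 and 2.12, and the pyruvate dehydrogenase kinase PDK1 by log2 2.21. Hexokinase HK2 rose by log2 1.48, while HK1 was not called (log2 difference -0.78, and 0.15 averaged over its probe sets). PFKFB3 and PFKP, which set the phosphofructokinase step, fell by log2 2.14 and 1.50. Of 51 respiratory chain genes, 0 rose and 3 fell (0% higher and 5.88% lower, against 18.9% and 15.1% over all genes, with a median log2 difference of 0.001). With the mean of the probe sets 5 were called. Those that fell were COX7A1 (-1.92), SDHA (-1.56) and COX8A (-1.31).

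In serine, glycine and one-carbon metabolism, 6 of 23 tested genes rose and 2 fell (26.1% higher and 8.70% lower, against 18.9% and 15.1% over all genes, with a median log2 difference of 0.18). GLDC, the glycine decarboxylase, read 10.00, 9.84 and 9.88 on the CRES-3 arrays, against 9.08, 5.43 and 5.88 on the fibroblast arrays and rose by log2 3.11 (a log2 difference of 4.25 without fibroblast array A and 2.43 without fibroblast array B). Its partner AMT rose by log2 2.25, the hydroxymethyltransferase SHMT1 by log2 2.39 and the cystine transporter SLC7A11 by log2 2.45. The neutral amino acid transporter SLC1A4 fell by log2 3.13. Lipid genes rose in 6 and fell in 10 of 31 (19.4% higher and 32.3% lower, against 18.9% and 15.1% over all genes, with a median log2 difference of -0.11), so the share of rises was near that over all genes. The rises were 5 without FABP5, which is counted by its brighter probe set. APOE read 11.65, 11.57 and 11.28 on the CRES-3 arrays, against 6.73, 6.42 and 7.06 on the fibroblast arrays and rose by log2 4.76, 27.1-fold. The fatty acid elongases ELOVL6 and ELOVL1 moved apart, at log2 differences of 3.32 and -3.38, and the desaturases FADS2 and FADS3 and the regulator SREBF1 fell by log2 2.44 (a log2 difference of -3.09 without fibroblast array A), 2.29 and 1.91. FABP5, a fatty acid binding protein, had 1 probe set called in each direction, a mean log2 difference of -0.19, and is given none.

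Ribosome biogenesis genes rose in 10 of 46 and none was called lower (21.7% higher and 0% lower, against 18.9% and 15.1% over all genes, with a median log2 difference of 0.60), so the share of rises was near that over all genes. The helicase DDX10 rose by log2 2.84 (a log2 difference of 3.52 without fibroblast array A and 2.04 without fibroblast array B) and the RNA polymerase I factor RRN3 by log2 2.61. Lysosome and autophagy genes fell in 16 of 42 and rose in 1 (2.38% higher and 38.1% lower, against 18.9% and 15.1% over all genes, with a median log2 difference of -0.76). The cathepsin CTSZ fell by log2 3.48, the sphingomyelinase SMPD1 by log2 3.59 and the autophagy receptor SQSTM1 by log2 2.38, while the cholesterol carrier NPC2 rose by log2 1.20.

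Imprinted genes, which are expressed from 1 parental copy, were called in both directions, 5 of 22 higher and 6 lower (22.7% higher and 27.3% lower, against 18.9% and 15.1% over all genes, with a median log2 difference of 0.17). The share of rises was near that over all genes. MEST read 10.52, 10.47 and 10.58 on the CRES-3 arrays, against 6.11, 3.43 and 4.81 on the fibroblast arrays. MEST rose by log2 5.74, at least 46.0-fold (a log2 difference of 6.41 without fibroblast array A and 5.06 without fibroblast array B), and PEG3, DLK1, MAGEL2 and SNRPN, paternally expressed like MEST, by log2 3.28, 2.82, 2.68 and 2.22. Paternally expressed genes were also among the falls, with DIRAS3 at -4.89, SGCE at -3.35 and PLAGL1 at -2.08. DIRAS3 read 3.80, 3.83 and 3.77 on the CRES-3 arrays, against 7.01, 9.86 and 9.21 on the fibroblast arrays (a log2 difference of -5.74 without fibroblast array A). The maternally expressed SLC22A18 fell by log2 1.80, and the paternally expressed ligand IGF2 was not called (log2 difference -0.43).

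Of 13 tested regulators linked to X inactivation, 3 rose and 1 fell (23.1% higher and 7.69% lower, against 18.9% and 15.1% over all genes, with a median log2 difference of 0.70), so the share of rises was near that over all genes. With the mean of the probe sets 2 were called, against 4. The lamin B receptor LBR rose by log2 1.95, the histone methyltransferase EHMT2 by log2 1.43 (0.85 and not called averaged over its probe sets) and HNRNPU by log2 1.22 (log2 1.00 without fibroblast array B and 0.71 averaged over its probe sets, neither called), and the histone variant MACROH2A1 fell by log2 1.35 and read 9.28, 9.14 and 9.86 on the CRES-3 arrays, against 11.26, 10.54 and 10.55 on the fibroblast arrays. By position, 27.1% of 395 X-linked genes were called higher in CRES-3 and 14.7% lower, against 18.7% and 15.0% of 10208 autosomal genes. The X share of rises was not the highest of a chromosome. Chromosome 17 had 28.8% of 177 genes higher, and the shares of chromosomes 5 and 11 were 24.5% and 23.1%. Chromosomes 20, 16 and 14 had the lowest, at 13.5%, 13.8% and 13.9%. Chromosomes are those of the RefSeq annotation of assembly T2T-MMU8v2.0, and these shares carry no test.

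Markers of cell types other than the labelled ones were checked next. 3 of 9 keratinocyte markers on the array, 4 of 8 melanocyte and 3 of 9 immune markers passed the filter, so skin cells of these kinds were measured through few genes. Endoderm markers were higher in 4 of 7 tested (57.1% higher and 0% lower, against 18.9% and 15.1% over all genes). Of the 7, 3 averaged under log2 5 in the fibroblasts and passed the filter mainly through CRES-3. The endoderm markers differed among the CRES-3 arrays. Their mean was 6.36, 6.81 and 7.68 on CRES-3 arrays A, B and C, against 5.77, 5.99 and 5.80 on the fibroblast arrays. SOX17, a factor of definitive and extraembryonic endoderm, read 5.63, 6.10 and 8.27 on the CRES-3 arrays, against 4.17, 4.64 and 4.50 on the fibroblast arrays. CRES-3 array C was more than log2 2 above A and B for SOX17, and the rise of log2 2.23 was not called without that array (log2 1.43) or without any one of fibroblast arrays A (2.10), B (2.33) and C (2.26). APOA1 rose by log2 2.57 and CXCR4 by log2 2.20, the second not called without CRES-3 array C (log2 1.85). FOXA2 rose by log2 1.75, and was not called without CRES-3 array B or C (log2 1.74 and 1.35) or without fibroblast array A or C (1.74 and 1.55). GATA6, another endoderm factor, read 6.18, 6.95 and 8.71 on the CRES-3 arrays, against 8.62, 9.09 and 9.41 on the fibroblast arrays, was not called (log2 difference -1.76), and showed the same high array.

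Primitive streak and mesoderm markers had 3 rises among 6 tested, BMP4 among them (50% higher and 0% lower, against 18.9% and 15.1% over all genes). Of the 6, 2 averaged under log2 5 in the fibroblasts. EOMES read 6.50, 7.49 and 8.78 on the CRES-3 arrays, against 5.31, 4.61 and 4.71 on the fibroblast arrays and GSC 6.30, 7.51 and 7.89 on the CRES-3 arrays, against 4.22, 4.65 and 4.19 on the fibroblast arrays. Both were highest on CRES-3 array C, and rose by log2 2.72 (a log2 difference of 2.12 without CRES-3 array C) and 2.88. The call of GSC was lost without CRES-3 array B or C (log2 2.74 and 2.55) or without fibroblast array C (2.80). Among 9 tested trophoblast markers, VTCN1 rose by log2 5.91, and TFAP2A, GATA2 and KRT7 fell by log2 4.93, 1.71 and 4.33 (11.1% higher and 33.3% lower, against 18.9% and 15.1% over all genes). VTCN1 read 9.67, 9.84 and 9.80 on the CRES-3 arrays, against 4.36, 3.86 and 3.37 on the fibroblast arrays. Among 5 tested endothelial markers, TEK rose by log2 3.99 and PECAM1 fell by log2 2.62 (20% higher and 20% lower, against 18.9% and 15.1% over all genes). With only 5 genes, these shares were near those over all genes. The part of differentiated cells in these values was not tested.

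Set beside the series' other stem cell lines, CRES-3 had few called genes. Against RiPS3, a female line induced with 4 retroviral factors from fibroblasts of an animal aged 8 years, 3 of 10741 genes were called (0.0279%), 2 higher (0.0186%) and 1 lower (0.00931%), while 828 had an unadjusted p under 0.05. The transporter-like SVOPL was higher in CRES-3 by log2 1.85 ± 0.29 (SE, adjusted p = 0.0144) and the sulfotransferase CHST8 by log2 1.07 ± 0.17 (adjusted p = 0.0144). ZNF662 had a log2 difference, CRES-3 minus RiPS3, of -1.30 ± 0.18 (adjusted p = 0.00981). This count was 0 without CRES-3 array B or without RiPS3 array B, 1 without RiPS3 array C, 16 without RiPS3 array A, and 9 in a fit of those lines' arrays alone.

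Against ORMES23, a line from a fertilized embryo labelled male, 97 genes were called (0.903%), 57 higher (0.531%) and 40 lower (0.372%). Before adjustment, 1782 genes had a p under 0.05. Leaving out 1 array gave 43 calls without CRES-3 array A, 47 without CRES-3 array B, 175 without ORMES23 array A, 58 without its array B and 49 without its array C. The class I gene MAMU-AG was higher in CRES-3 by log2 4.21 ± 0.21 (SE, adjusted p = 1.92e-09), while its difference from the fibroblasts was -0.28 (0.38 averaged over its probe sets) and not called. MAMU-AG read 12.01, 11.75 and 12.15 on the CRES-3 arrays, against 12.12, 12.47 and 12.15 on the fibroblast arrays. The zinc finger genes ZNF799 and ZNF311 were higher by log2 3.13 and 3.07, the calcium-binding GCA by log2 2.58 and the iron-siderophore binder LCN2 by log2 2.33. Lower in CRES-3 than in ORMES23 were FOS (log2 -3.02), CDKN2A (-2.77), TWIST1 (-2.22), TIPARP (-1.91) and VSNL1 (-1.77). Against the fibroblasts, CDKN2A and TWIST1 had log2 differences of -3.95 and -3.19. These comparisons share the CRES-3 arrays, and a gene not called is not shown to be equal.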

How the data were processed

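Total RNA was labelled with biotin and hybridised to rhesus microarrays, 3 per line. The authors deposited log2 values made with RMA, per the submitters' processing notes, whose version is not given in the sources used here. RMA corrects background, quantile-normalizes and summarises probes on a log2 scale. No scanner files were used, so no background call exists and log2 5 served as the floor. The number of arrays limits the precision. Probe sets were named through the platform annotation, and 24629 of the 24969 with 1 symbol matched RefSeq (T2T-MMU8v2.0) by Entrez identifier. Array medians ran between 4.98 and 5.14, and no arrays were identical.

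A limma model (limma 3.58.1, R 4.3.3) gave each of the 7 lines its own mean over all 21 arrays, with Benjamini-Hochberg adjustment over the 17488 probe sets. The spread of a probe set was pooled over the lines. Genes were called at an adjusted p under 0.05 and a 2-fold difference, two-sided. The fit was tested on simulated data with the same spread in every line. That test could not show how the wider spread among the fibroblast arrays affects the calls. No set test was run. Lists are described by counts and medians beside those of all genes.

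The members and lists were chosen with earlier results of these data known, so counts over lists are descriptions. Genes were named by rule: the 10 largest rises and falls, up to 6 called members of a list in each direction, paralogues, ligands, receptors, inhibitors and catalytic subunits, the reprogramming factors, and up to 6 calls against each other line. Replicate letters are not said to mark shared cultures. Alternatives changed the filter, scaling, probe set rule, moderation, arrays in the fit and the block.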

Additional observations from a re-analysis of the deposited data

How the results depend on the processing

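The counts of genes called higher and lower than in the fibroblasts stayed within 1.5 times the reported values in all 15 alternatives, with 1906 to 2140 higher and 1491 to 1708 lower. With the replicate block the counts were 2035 and 1622. Same-lettered arrays had correlations of their deviations of 0.16 (A), 0.20 (B) and 0.067 (C), and each correlated best with its own letter, which is a hint from the data and not the design. The block changed no other count by over 1.5 times. The RiPS3 count was 9 with the arrays of those lines alone and 0 to 16 with 1 array left out, and the ORMES23 count 43 to 175. Of 37 list counts, telomere genes ranged from 4 to 8 calls with 1 array left out. With the mean of a gene's probe sets in place of the brightest, respiratory chain calls were 5 and X inactivation calls 2. Of 357 genes named, 319 kept their direction and side of the threshold in every alternative run. With the mean of the probe sets, 12 genes named were no longer called (APAF1, COL18A1, CTC1, CXCL12, EHMT2, GFAP, HNRNPU, ITGA7, KLF2, PLOD1, SUZ12 and TEAD2), and the log2 difference changed sign for FABP5 (-0.19), FGFR3 (1.18), HK1 (0.15), EFNA1 (0.78), MAMU-AG (0.38) and BMP2 (0.026). With 1 array left out, differences changed sign for genes that were not called: BMP2 ranged from -0.71 to 0.38, CCN2 from -0.58 to 0.30, FGFR1 from -0.31 to 0.19, IGFBP2 from -0.62 to 0.14, STMN2 from -1.10 to 0.34, TET2 from -0.033 to 0.33 and ZBTB17 from -0.025 to 0.13, the last also at -0.0029 after median centring and -0.074 after quantile normalization. SERPING1 was log2 0.98 and not called after quantile normalization, FOXA2 was not called when the adjustment ran over the whole table, and FOS, GATA6 and PAX6 passed in the fit of the compared lines alone. The cause of these changes was not tested. Scaling moved the median of all genes to between -0.02 and 0.003, against 0.03 as reported. Signals near log2 5 limit what can be read of dim genes.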

Other observations

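Neural markers were called in both directions (40% higher and 20% lower, against 18.9% and 15.1% over all genes), and 5 genes are too few to describe the group. Of 5 tested, DCX rose by log2 1.23 and GFAP by log2 1.53, TUBB3 fell by 1.40 on the log2 scale (without fibroblast array A its log2 difference was -0.85 and was not called), and PAX6 and OLIG2 were not called. Of the markers of other skin cells, SFN, which keratinocytes express, was higher in CRES-3 by log2 2.25 and MLANA of melanocytes by log2 1.49. TP63 and SOX10, the defining factors of keratinocytes and melanocytes, were not called, with log2 differences of -0.36 and -0.39.

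Within CRES-3, 12 genes had an SD above 1 over the 3 arrays, named here after their values were seen. Array C was the highest for 9 of them and the lowest for 2. The 9 were the endoderm and mesoderm factors SOX17, GATA6 and EOMES, the ligand BMP2, the WNT antagonist DKK1, the proteoglycan LUM, the desaturase SCD5, STMN2 and LOC713150. BMP2 read 5.05, 5.74 and 7.24 on CRES-3 arrays A, B and C, and STMN2 read 6.09, 6.53 and 8.22.

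Of 4267 genes with several compared probe sets, 59 had probe sets called in opposite directions, so for those genes the direction depended on the probe set read.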
